A study of Sus scrofa with 12 samples.

Results

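OVGP1, ESR1 and PGR are the oviduct's own secreted glycoprotein and the nuclear receptors for estrogen and progesterone, and they were followed in porcine oviduct epithelial cells before and after the cells formed spheroids in culture. The 3 genes were chosen by symbol from a table of 30461 gene rows, and each symbol stood on 1 row (OVGP1, ENSSSCG00025053839; ESR1, ENSSSCG00025044932; PGR, ENSSSCG00025023194). All 3 were among the 14070 genes with enough counts to be tested. The study sequenced 3′ ends of polyadenylated RNA from bulk samples, with 12 libraries, 4 in each of 3 groups. The first group was single cells scraped from the oviduct, called fresh cells below. The other groups were spheroids, 3-dimensional clusters of cells, made either in DMEM/F12 or in what the labels call incubation medium. The labels give no composition or hormone content for either medium, no culture time, and no age, number or cycle stage of the donor pigs. They mark the DMEM/F12 libraries FBS and the others Diff without explaining these words. Nothing says whether replicates came from separate animals or cultures, so p-values measure the spread between these libraries, which may be technical.

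Oviductin, the product of OVGP1, is a large glycoprotein that the secretory cells of the oviduct release into the lumen, where it binds the egg coat and the early embryo. Its fold is that of the family 18 chitinases, but it lacks their enzyme activity. ESR1 encodes estrogen receptor alpha, a transcription factor switched on by estradiol. PGR encodes the progesterone receptor, whose gene is itself a target of estrogen in much of the female tract. In the oviduct, estrogen is known to favour secretion, oviductin included, and ciliation, and progesterone opposes much of this.

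Gene counts per library ranged from 5045187 to 8603774. Levels are given as CPM, counts scaled to a common library size with TMM factors, and differences as log2 fold changes from 1 edgeR quasi-likelihood fit of all 12 libraries. A gene is called changed where its p, adjusted by the Benjamini-Hochberg method over all 14070 genes, was under 0.05. At this threshold 70.7% of all tested genes were called in DMEM/F12 spheroids against fresh cells, 71.7% in incubation medium spheroids against fresh cells and 25% between the media. A call against fresh cells was therefore common, and both of these comparisons used the same 4 fresh cell libraries. Epithelial markers were present in every group: EPCAM, an epithelial adhesion molecule, averaged 904 CPM in fresh cells, 628 with DMEM/F12 and 715 with incubation medium. In bulk RNA, fewer cells of a type and less RNA per cell cannot be told apart.

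For all 3 genes the 8 spheroid libraries lay below the 4 fresh libraries. Such a separation downward was seen for 32.9% of tested genes in DMEM/F12 and 32.5% in incubation medium. All 3 were called lower in both media, where the share of all tested genes called lower was 35.7% for DMEM/F12 and 35.8% for incubation medium. OVGP1 fell by the most, ESR1 and PGR by a few fold. Between the media, ESR1 alone of the 3 was called, with the higher level in incubation medium.

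OVGP1 took an average of 2.19% of all gene counts in fresh cells. Its level in fresh cells was 25009, 15908, 21874 and 26172 CPM in replicates 1 to 4. In DMEM/F12 spheroids the 4 libraries read 696, 196, 186 and 522 CPM. In incubation medium spheroids they read 734, 191, 196 and 762 CPM. The highest spheroid library thus lay far below the lowest fresh library, and in all 3 groups replicates 1 and 4 stood above replicates 2 and 3.

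The group means of OVGP1 were 22241 ± 4595 CPM in fresh cells, 400.0 ± 251 in spheroids of DMEM/F12 and 471 ± 320.3 in those of incubation medium (SD, n = 4 each). Against fresh cells the DMEM/F12 spheroids differed by -5.80 on the log2 scale (SE 0.60, 95% interval -7.07 to -4.52, adjusted p = 8.14e-07), which is 55.6-fold lower. Incubation medium spheroids differed by -5.56 (SE 0.59, 95% interval -6.82 to -4.30, adjusted p = 1.07e-06), which is 47.2-fold lower. The transcript was still present: the library with the fewest held 1408 expected counts of OVGP1, and spheroid libraries gave it an average of 0.0417% of counts in DMEM/F12 and 0.0455% in incubation medium. The difference between the media, 0.23 (SE 0.49, 95% interval -0.81 to 1.28, adjusted p = 0.77), was smaller than the spread between replicates.

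ESR1 was present in every library at levels that replicates shared closely. Fresh cells gave 565, 625, 657 and 680.4 CPM in replicates 1 to 4. DMEM/F12 spheroids gave 200.2, 177, 150.3 and 207 CPM. Incubation medium spheroids gave 326, 256, 253 and 253 CPM. The 3 groups did not overlap: fresh cells were highest, incubation medium spheroids came next and DMEM/F12 spheroids were lowest.

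The means of ESR1 were 632 ± 49.9, 184 ± 25.8 and 272 ± 36.1 CPM for fresh cells, DMEM/F12 and incubation medium (SD, n = 4 each). The gene fell 3.44-fold in DMEM/F12 spheroids (-1.78, SE 0.12, 95% interval -2.03 to -1.53, adjusted p = 1.06e-08). It fell 2.32-fold in incubation medium spheroids (-1.22, SE 0.12, 95% interval -1.46 to -0.97, adjusted p = 3.55e-07). Between the media it was 1.48-fold higher in incubation medium (0.57, SE 0.11, 95% interval 0.32 to 0.81, adjusted p = 0.00252). For that comparison 12.7% of tested genes were called higher, and 13.9% had all 4 incubation medium libraries above all 4 DMEM/F12 libraries. With library totals in place of TMM the split of all calls between the media moved from 1791 higher and 1731 lower to 1239 higher and 2471 lower, and ESR1 remained called at 0.47. Replicate 1 of the incubation medium stood above the other 3 libraries of its group, and without it ESR1 differed between the media by 0.47 (adjusted p = 0.00793).

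PGR had the lowest counts of the 3 genes, from 88 to 526 expected counts per library. Fresh cells gave 91.6, 45.6, 66.9 and 67.8 CPM in replicates 1 to 4. DMEM/F12 spheroids gave 26.9, 14.4, 11.6 and 26.3 CPM. Incubation medium spheroids gave 27.7, 16.2, 18.1 and 26.5 CPM. Every spheroid library was below the lowest fresh library, replicate 2, and the 2 spheroid groups overlapped over most of their range.

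The means of PGR were 68.0 ± 18.8, 19.8 ± 7.92 and 22.1 ± 5.82 CPM for fresh cells, DMEM/F12 and incubation medium (SD, n = 4 each). PGR fell 3.42-fold in DMEM/F12 spheroids (-1.78, SE 0.27, 95% interval -2.36 to -1.19, adjusted p = 4.33e-05). It fell 3.07-fold in incubation medium spheroids (-1.62, SE 0.27, 95% interval -2.20 to -1.04, adjusted p = 9.39e-05). The media differed by 0.16 (SE 0.28, 95% interval -0.44 to 0.76, adjusted p = 0.731), which did not pass the test.

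**Figure D1:**
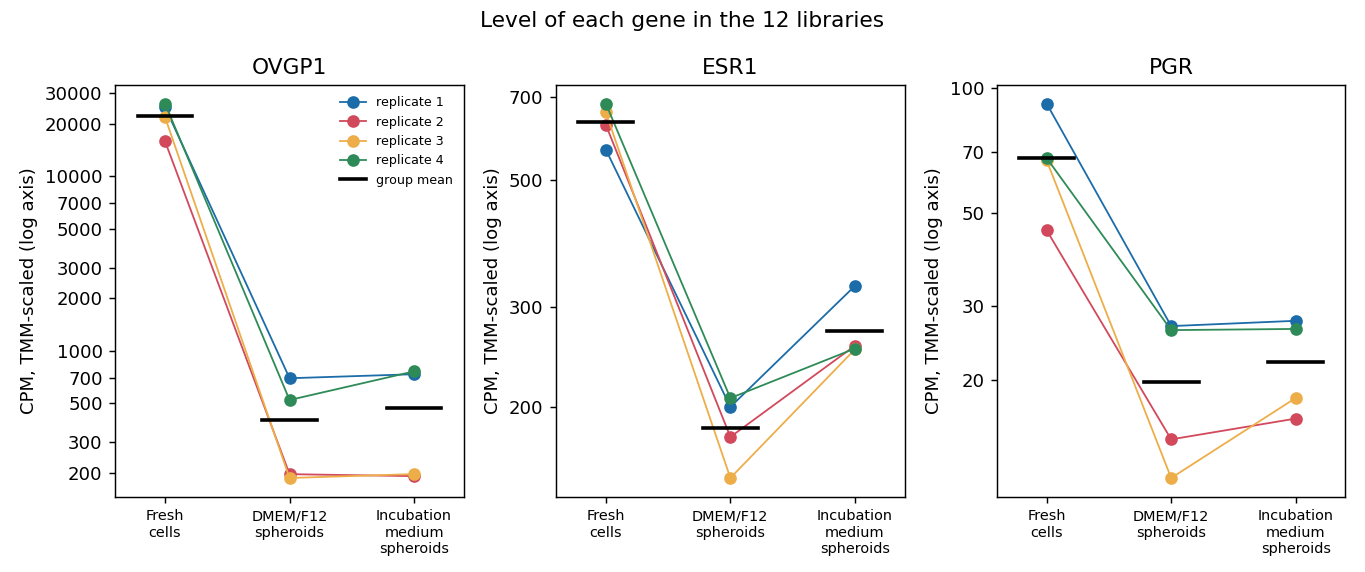
Level of OVGP1, ESR1 and PGR in each of the 12 libraries, as TMM-scaled CPM on a log axis with its own range in each panel. Points are libraries, coloured lines join libraries with the same replicate number, and black bars are group means (n = 4). All spheroid points lie below all fresh cell points, and the groups differ most for OVGP1.

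Libraries with the same replicate number deviated together, so each spheroid library was also set against the fresh library of its number. OVGP1 differed by -5.17, -6.34, -6.87 and -5.65 (log2) in DMEM/F12 spheroids for replicates 1 to 4, and by -5.09, -6.38, -6.80 and -5.10 in incubation medium spheroids. The drop was thus present in all 8 pairs, and in both media it was larger in replicates 2 and 3 than in replicates 1 and 4. ESR1 differed by -1.5, -1.82, -2.13 and -1.71 in DMEM/F12 spheroids and by -0.79, -1.28, -1.38 and -1.42 in incubation medium spheroids. PGR differed by -1.76, -1.64, -2.50 and -1.36 in DMEM/F12 spheroids and by -1.72, -1.48, -1.87 and -1.35 in incubation medium spheroids. Between the media, ESR1 was higher in incubation medium in all 4 pairs, by 0.70, 0.53, 0.75 and 0.29. PGR was higher there in all 4 pairs too, by 0.04, 0.16, 0.62 and 0.009. In an edgeR fit with the replicate number as a block, PGR was not called between the media (0.17, adjusted p = 0.383). OVGP1 was within 0.08 in either direction in 3 of the pairs and 0.55 higher in replicate 4.

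OVGP1 and PGR spread widely within all 3 groups, OVGP1 most in spheroids, and ESR1 spread less. The highest OVGP1 library exceeded the lowest by 1.65 times in fresh cells, 3.73 times in spheroids of DMEM/F12 and 3.99 times in those of incubation medium. Its SD of log2 CPM was 0.97 in DMEM/F12 and 1.13 in incubation medium spheroids. Among the 7197 tested genes with a mean of at least 20 CPM the median SD was 0.13 and 0.14, which put OVGP1 at percentiles 99.7 and 99.9. PGR had an SD of 0.60 and 0.38, at percentiles 98.2 and 93.8. ESR1 had 0.21 and 0.18, at percentiles 78.3 and 66.2. In fresh cells the SD was 0.32 for OVGP1, 0.12 for ESR1 and 0.41 for PGR, beside a median of 0.15. This put them at percentiles 91.0, 34.4 and 95.5.

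**Figure D2:**
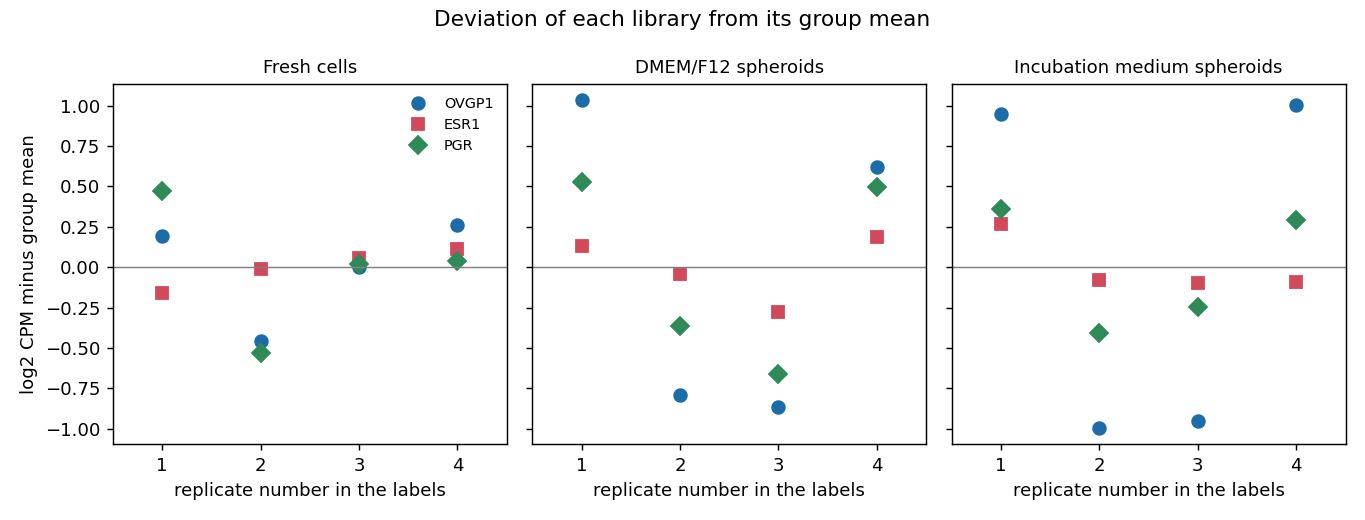
Deviation of log2 CPM from the group mean for OVGP1, ESR1 and PGR, by replicate number, in the 3 groups. In all 3 groups the OVGP1 points of replicates 1 and 4 lie above those of replicates 2 and 3. In both spheroid groups the OVGP1 points of replicates 1 and 4 lie above zero and those of replicates 2 and 3 below, and PGR lies on the same side each time; ESR1 stays closer to zero.

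Whether the 3 genes differed in the size of their drop was tested on the log2 ratio of their CPM within each library. The log2 ratio of OVGP1 to ESR1 was 5.11 ± 0.34 in fresh cells, 0.89 ± 0.80 in spheroids of DMEM/F12 and 0.49 ± 1.04 in those of incubation medium (SD, n = 4). The ratio of OVGP1 to PGR was 8.37 ± 0.21, 4.17 ± 0.41 and 4.13 ± 0.75. Every spheroid library was below every fresh library in both ratios. Each of these 4 differences, from -4.62 to -4.19, had the smallest p that 4 against 4 libraries allow (two-sided exact permutation p = 0.0286). Adjusted over the 9 ratio tests the exact p was 0.0643, which misses the threshold. With only 4 of the 9 tests at the smallest p, no difference of any size could have passed. The miss therefore says nothing about the size of these differences. The ratio of ESR1 to PGR was 3.25 ± 0.47, 3.28 ± 0.41 and 3.63 ± 0.31. It differed from fresh cells by 0.03 in DMEM/F12 (exact p = 0.971) and by 0.38 in incubation medium (exact p = 0.257), within the spread between libraries.

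Steroid hormones also act through other nuclear receptors and through membrane proteins. Of a list of 15 such receptors and their relatives, 11 had a row and 10 were tested, on 11 rows because PAQR8 stood on 2. In DMEM/F12 spheroids 3 rows were called higher and 5 lower, and in incubation medium spheroids 2 higher and 6 lower. These 72.7% called in each medium are close to the background given above, and the median log2 fold changes of -0.12 and -0.26 stand beside -0.01 over all tested genes in both comparisons. ESR2, the second estrogen receptor, held 5 counts in all 12 libraries together and was not tested. The glucocorticoid receptor NR3C1 was not analysed here.

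Among the nuclear receptors, NR3C2, which binds aldosterone and cortisol, fell. Its mean was 39.1 CPM in fresh cells, 8.55 with DMEM/F12 and 12.2 with incubation medium. The differences were -2.19 (SE 0.19, adjusted p = 1.20e-07) and -1.68 (SE 0.18, adjusted p = 1.20e-06). With the replicate number as a block the media also differed, by 0.50 (adjusted p = 0.00843), which was not called without it (0.51, adjusted p = 0.0695); without the block the call was made when DMEM/F12 replicate 1 (0.64, adjusted p = 0.0357) or incubation medium replicate 3 (0.63, adjusted p = 0.0329) was left out.

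The estrogen-related receptors resemble ESR1 in sequence but bind no estrogen, and they moved in opposite directions. ESRRA, which drives mitochondrial and oxidative genes, rose. Its libraries read 14.8, 17.9, 14.6 and 16.7 CPM in fresh cells, 56.2, 45.3, 48.2 and 49.1 in spheroids of DMEM/F12 and 103, 92.8, 84.3 and 109.8 in those of incubation medium, and no group overlapped another. The differences were 1.63 (SE 0.11, adjusted p = 1.66e-08), 2.61 (SE 0.11, adjusted p = 2.38e-10) and, between the media, 0.97 (SE 0.10, adjusted p = 1.60e-05). ESRRG and ESRRB were low in fresh cells, at 4.75 ± 1.46 and 2.65 ± 0.712 CPM (SD, n = 4), and fell in both media. In DMEM/F12 spheroids every library held 1 count of ESRRG, and the summed counts were 38.7-fold lower than in fresh cells (95% exact interval 14.7 to 144.7, counting error only). ESRRB was 9.68-fold lower there on 9 counts (95% exact interval 4.77 to 22.2). In incubation medium the fitted differences were -3.70 (SE 0.32, adjusted p = 1.40e-07) for ESRRG and -2.74 (SE 0.36, adjusted p = 7.87e-06) for ESRRB.

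GPER1, a G protein-coupled receptor for estrogen at membranes, rose from low levels. Fresh cells gave 2.61, 1.61, 4.67 and 5.49 CPM, DMEM/F12 spheroids 18.7, 16.7, 18.3 and 17.8 and incubation medium spheroids 9.42, 8.94, 11.3 and 12.9. The differences were 2.32 (SE 0.25, adjusted p = 1.43e-06) and 1.58 (SE 0.26, adjusted p = 7.85e-05). It was lower in incubation medium than in DMEM/F12 (-0.75, adjusted p = 0.0194), a call lost without incubation medium replicate 2 (adjusted p = 0.0614). ESR1 and GPER1 thus ranked the 3 groups in opposite order, ESR1 lowest and GPER1 highest in DMEM/F12 spheroids.

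The membrane progesterone receptors belong to the PAQR and PGRMC families. PGRMC2 fell, with means of 109.5 CPM in fresh cells, 60.3 with DMEM/F12 and 65.6 with incubation medium and differences of -0.86 (SE 0.08, adjusted p = 2.90e-07) and -0.74 (SE 0.08, adjusted p = 1.25e-06). PGRMC1, its heme-binding relative, averaged 259.6 CPM in fresh cells, 239 with DMEM/F12 and 217 with incubation medium; it passed in incubation medium (-0.26, adjusted p = 0.0186), and not when fresh replicate 1 was left out (-0.20, adjusted p = 0.0657) or incubation medium replicate 1 (-0.23, adjusted p = 0.0575) or 2 (-0.23, adjusted p = 0.0556), nor with no filter on low counts (-0.19, adjusted p = 0.103). In DMEM/F12 PGRMC1 gave -0.12 (adjusted p = 0.239), called without fresh replicate 3 (-0.20, adjusted p = 0.0399), and between the media -0.14 (adjusted p = 0.295), called with library totals (-0.23, adjusted p = 0.0487). The 2 rows named PAQR8 differed. The row ENSSSCG00025048550 changed by -1.97 (SE 0.17, adjusted p = 1.68e-07) and -2.46 (SE 0.18, adjusted p = 2.48e-08). The row ENSSSCG00025048338 gave 0.42 and -0.17, neither called, and -0.58 between the media (adjusted p = 0.0405), a call lost when any of 6 libraries was left out (adjusted p up to 0.108). With the block, the first of these values was called at 0.45 (adjusted p = 0.0027), and the row ENSSSCG00025048550 was called lower in incubation medium than in DMEM/F12 (-0.49, adjusted p = 0.00304). Without the block the first was called without fresh replicate 1 (0.66, adjusted p = 0.00305) or DMEM/F12 replicate 3 (0.50, adjusted p = 0.0481) and the second without incubation medium replicate 1 (-0.69, adjusted p = 0.00713); library totals (0.50 and -0.58) and no filter on low counts (0.49 and -0.50) called both, and DESeq2 the second (-0.49). Rows with the same symbol may share reads, so neither is certain. PAQR7 gave 0.92 in DMEM/F12 (adjusted p = 0.0421), lost without fresh replicate 2 or 3 or DMEM/F12 replicate 1 or 4 (adjusted p from 0.0813 to 0.135). PAQR6 did not pass in any comparison, at 24.5 ± 2.7, 22.9 ± 2.16 and 23.9 ± 2.83 CPM.

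**Figure D3:**
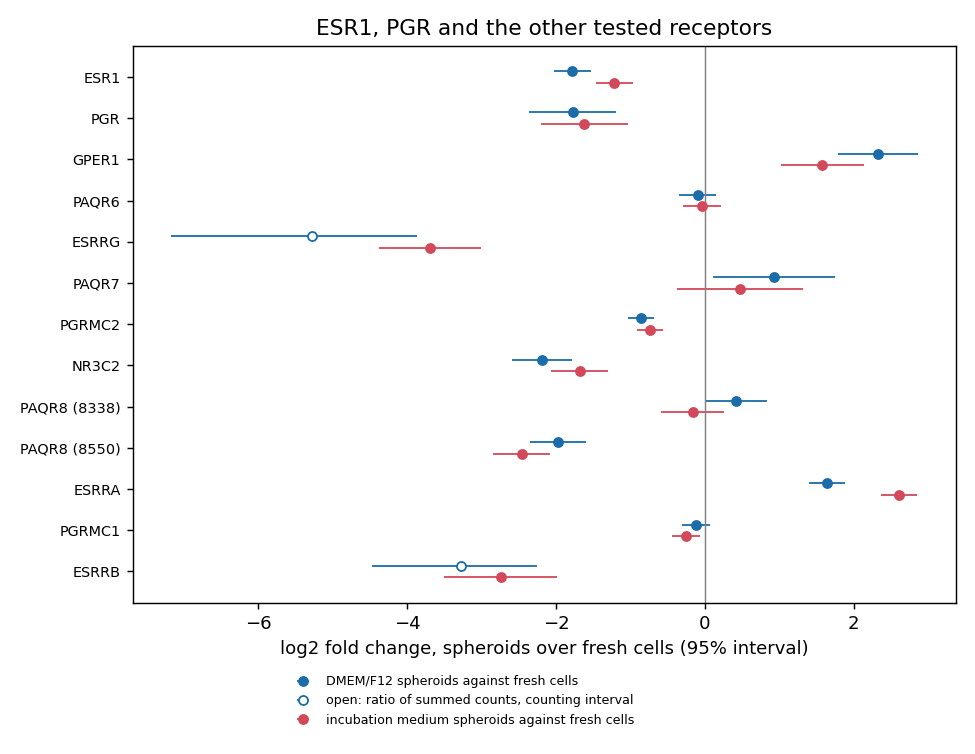
Log2 fold change of ESR1, PGR and the 11 other tested receptor rows in spheroids of each medium over fresh cells. Filled points are fitted values with 95% intervals; open points are ratios of summed counts with exact counting intervals, for ESRRG and ESRRB in DMEM/F12, where each library held at most 3 counts. The 2 PAQR8 rows carry the last digits of their identifiers. ESR1 and PGR lie left of zero, and ESRRA and GPER1 right of it, in both media.

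Unliganded steroid receptors are held by heat shock proteins and co-chaperones. Of 15 such genes 14 were tested. In DMEM/F12 spheroids 3 were called higher and 9 lower, and in incubation medium spheroids 4 higher and 8 lower, with medians of -0.58 and -0.40. The share called was 85.7% in each medium, beside 70.7% and 71.7% of all tested genes. DNAJB1, a heat-inducible partner of HSP70, fell from 4798 ± 818 CPM to 112 ± 12 and 90.6 ± 8.55 (SD, n = 4), with log2 differences of -5.41 (SE 0.14, adjusted p = 3.10e-12) and -5.73 (SE 0.15, adjusted p = 2.07e-12). HSP90AA1, the inducible HSP90 that holds the receptors, changed by -1.98 (SE 0.11, adjusted p = 2.76e-09) and -1.96 (SE 0.11, adjusted p = 2.86e-09). HSPA8, the constitutive HSP70, changed by -1.74 and -1.72, and the co-chaperone ST13 by -0.67 and -0.41. HSP90AB1, the constitutive HSP90, was called in opposite directions: -0.31 (SE 0.08, adjusted p = 0.00292) in DMEM/F12 and 0.40 (SE 0.08, adjusted p = 3.30e-04) in incubation medium. Between the media it was higher in incubation medium, by 0.71 (SE 0.08, adjusted p = 2.87e-05). There 3 chaperones were called higher and 1 lower, and 6 higher with the replicate block. Without the block this is 28.6% called, beside 25% of all tested genes. With the block the calls over all tested genes rose from 3522 to 4613. The part of the high heat shock transcripts of fresh cells in the ESR1 and PGR differences was not tested.

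Coregulators carry the signal of the bound receptor to the transcription machinery. Of 26 listed, 16 were tested. In each medium 6 were called higher and 9 lower, with medians of -0.35 and -0.65. This is 93.8% called, beside 70.7% and 71.7% of all tested genes. XBP1, a transcription factor of secretory cells, fell from 434 CPM to 151 and 179 (-1.52 (SE 0.09, adjusted p = 4.17e-09) and -1.28 (SE 0.09, adjusted p = 1.93e-08)). The RNA helicase DDX5, a coactivator of ESR1, changed by -0.79 and -1.03. The arginine methyltransferase PRMT1 rose by 0.33 and 0.63, the first lost without DMEM/F12 replicate 2 (adjusted p = 0.0556). Between the media 3 coregulators were called higher and 2 lower, and 5 higher with the replicate block. Without the block this is 31.25% called, beside 25% of all tested genes.

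Genes that respond to estrogen in other tissues did not move as 1 group. Of 30 listed, 18 were tested. In DMEM/F12 spheroids 2 were called higher and 8 lower (55.6% called), in incubation medium spheroids 5 higher and 9 lower (77.8%), with medians of -0.37 and -0.46. The shares of all tested genes called were 70.7% and 71.7%. TFF3, a trefoil peptide of mucous secretions, read 223, 283, 461 and 226 CPM in fresh cells, 10.7, 14.9, 17.3 and 12 in spheroids of DMEM/F12 and 39.6, 66.1, 57.2 and 45.3 in those of incubation medium. The 3 groups did not overlap and held the same order as those of ESR1. TFF3 differed by -4.44 (SE 0.26, adjusted p = 4.13e-09) and -2.52 (SE 0.24, adjusted p = 3.03e-07), and between the media by 1.92 (SE 0.25, adjusted p = 1.07e-04). LTF, the secreted iron-binding protein lactoferrin, showed that order too, with means of 270.2 CPM in fresh cells, 28.5 with DMEM/F12 and 70.7 with incubation medium, and was 1.31 higher (log2) in incubation medium than in DMEM/F12 (SE 0.23, adjusted p = 9.43e-04).

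Other genes of the estrogen list went another way. CCND1, cyclin D1 of the G1 phase, rose from 52.6 ± 16.2 CPM to 201 ± 30.6 and 136 ± 39.6 (1.93 (SE 0.23, adjusted p = 3.27e-06) and 1.37 (SE 0.23, adjusted p = 7.96e-05)). RERG, a small GTPase, gave -0.30 in DMEM/F12 (adjusted p = 0.15) and changed in incubation medium by -1.47 (SE 0.19, adjusted p = 6.77e-06); the first value was called without DMEM/F12 replicate 1 (-0.53, adjusted p = 0.00312) or fresh replicate 1 (-0.42, adjusted p = 0.0494). THBS1, the matrix protein thrombospondin, gave -0.26 (adjusted p = 0.322) and changed in incubation medium by -0.91 (SE 0.23, adjusted p = 0.0029). Between the media 8 of the list were called higher and 2 lower in incubation medium (median 0.25, beside 0.00 over all genes), and 4 lower with the replicate block. Without the block this is 55.6% called, beside 25% of all tested genes, of which 12.7% were called higher and 12.3% lower.

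Of 30 genes that respond to progesterone in other tissues, 12 were tested. In DMEM/F12 spheroids 2 were called higher and 9 lower, and in incubation medium spheroids 1 higher and 9 lower, with medians of -1.18 and -1.61. These calls were 91.7% and 83.3% of the tested members, beside 70.7% and 71.7% of all tested genes, whose median was -0.01 in both comparisons. RGS2, an inhibitor of G protein signalling, read 105, 112, 101 and 89.0 CPM in fresh cells, 7.42, 6.16, 5.56 and 5.04 in spheroids of DMEM/F12 and 4.65, 7.61, 4.18 and 4.30 in those of incubation medium. Its differences were -4.07 (SE 0.16, adjusted p = 1.21e-10) and -4.30 (SE 0.17, adjusted p = 8.91e-11). The transcription factor CEBPB changed by -1.21 (SE 0.15, adjusted p = 4.26e-06) and -1.32 (SE 0.15, adjusted p = 1.86e-06). FKBP5, a receptor co-chaperone on both this list and that of the chaperones, gave -0.27 in DMEM/F12 (adjusted p = 0.229) and changed in incubation medium by -1.09 (SE 0.20, adjusted p = 2.29e-04); without fresh replicate 4 the first value was called (-0.44, adjusted p = 0.0221). ERRFI1, a feedback inhibitor of the EGF receptor, changed in DMEM/F12 by -0.78 (SE 0.19, adjusted p = 0.00217) and gave -0.36 in incubation medium (adjusted p = 0.103), a value called without fresh replicate 3 (-0.47, adjusted p = 0.0398) or 4 (-0.51, adjusted p = 0.0183).

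SPP1, the secreted phosphoprotein osteopontin, was called higher in both media, and higher in incubation medium than in DMEM/F12. It read 3541, 2828, 2341 and 3254 CPM in fresh cells, 8545, 7958, 4766 and 8729 in spheroids of DMEM/F12 and 22196, 21727, 21594 and 25047 in those of incubation medium. The groups did not overlap, and SPP1 rose by 1.33 (SE 0.17, adjusted p = 7.71e-06) and 2.92 (SE 0.18, adjusted p = 5.70e-09), with 1.59 (SE 0.17, adjusted p = 2.28e-05) between the media.

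Enzymes that make or inactivate steroids decide what reaches a receptor. Of 33 listed, 14 were tested. In DMEM/F12 spheroids 6 were called higher and 5 lower, and in incubation medium spheroids 6 higher and 6 lower, with medians of 0.24 and 0.03. These are 78.6% and 85.7% called, beside 70.7% and 71.7% of all tested genes. POR, which feeds electrons to cytochrome P450 enzymes, rose by 0.38 and 0.49. HSD17B8, which oxidises estradiol in vitro and takes part in mitochondrial fatty acid synthesis, changed by -1.25 (SE 0.17, adjusted p = 1.27e-05) and -1.11 (SE 0.17, adjusted p = 3.52e-05). Between the media 0 were called higher and 1 lower without the replicate block and 1 higher and 2 lower with it. Without the block this is 7.14% called, beside 25% of all tested genes. No enzyme of the list had all 4 libraries of one medium above all 4 of the other (0 of 14, beside 26.9% of all tested genes).

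**Figure D4:**
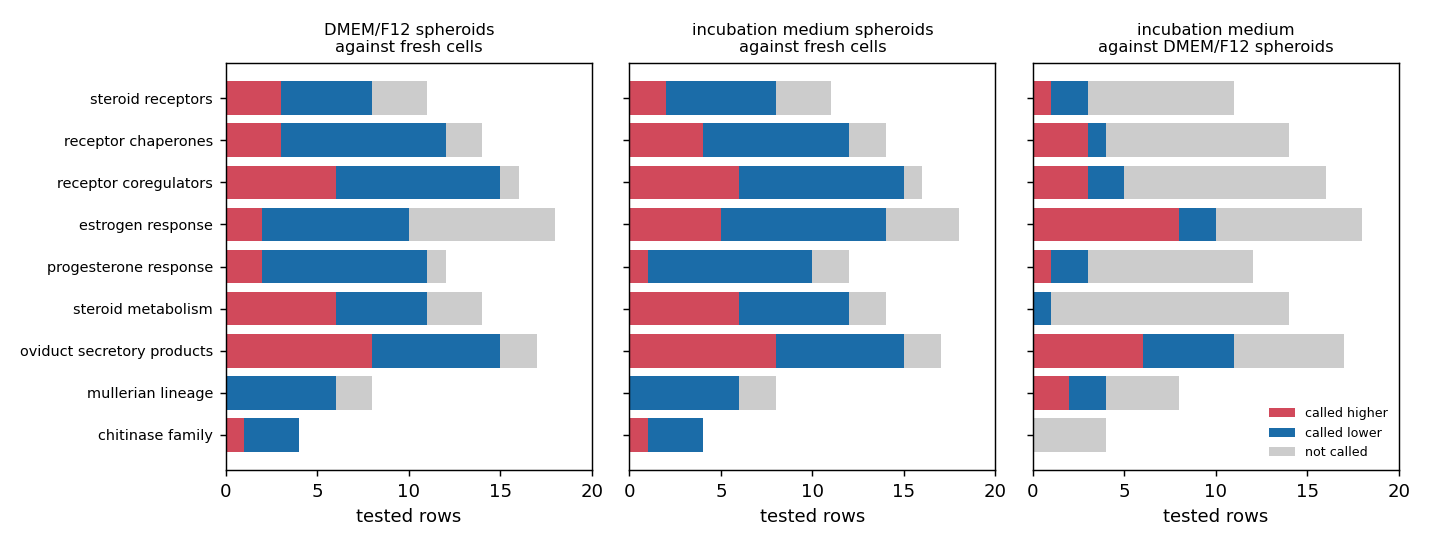
Number of tested rows called higher, called lower and not called in each list related to OVGP1, ESR1 and PGR, for the 3 comparisons. Most rows of most lists are called against fresh cells, as are 70.7% and 71.7% of all tested genes. Fewer are called between the media, except in the estrogen response list. There 10 of 18 rows are called between the media, as in DMEM/F12 against fresh cells.

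Other secreted products of the oviduct did not follow OVGP1 as a group. Of 30 listed, 17 were tested, and in each medium 8 were called higher and 7 lower. This is 88.2% called, beside 70.7% and 71.7% of all tested genes. SLPI, a secreted protease inhibitor, read 4824, 2868, 5507 and 3621 CPM in fresh cells, 725, 304, 283 and 434 in spheroids of DMEM/F12 and 817, 314, 467 and 364 in those of incubation medium, and changed by -3.27 (SE 0.36, adjusted p = 1.48e-06) and -3.10 (SE 0.35, adjusted p = 2.26e-06). PLAT, tissue plasminogen activator, rose by 0.46 (SE 0.09, adjusted p = 2.52e-04) and 2.61 (SE 0.09, adjusted p = 3.36e-11). ANXA5, a phospholipid-binding protein, rose by 1.5 (SE 0.11, adjusted p = 2.01e-08) and 1.18 (SE 0.11, adjusted p = 1.92e-07). CD9, a tetraspanin of vesicles, changed in incubation medium by -0.43 (SE 0.07, adjusted p = 1.22e-04). Its value in DMEM/F12, 0.17 (adjusted p = 0.0491), was not called with the replicate block (0.17, adjusted p = 0.0587), nor when any of 5 libraries was left out (adjusted p up to 0.101). The call was also lost with DESeq2 size factors (adjusted p = 0.0504) and counts rounded down (adjusted p = 0.0501). A filter at a mean of 10 counts (adjusted p = 0.0918) and a fit of only the groups compared (adjusted p = 0.0866) lost it too. The summed level of the 17 genes ranged from 10177 to 12423 CPM in fresh cells, 10783 to 15413 in spheroids of DMEM/F12 and 27967 to 32159 in those of incubation medium, and SPP1 made up most of the last.

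OVGP1 belongs to the chitinase family, of which 4 of 6 listed genes were tested. CHID1, a lysosomal member, changed by -0.87 (SE 0.11, adjusted p = 4.68e-06) and -0.64 (SE 0.11, adjusted p = 8.20e-05). CTBS, which splits chitobiose from glycoproteins, was low at 2.59 ± 1.25 CPM in fresh cells and changed by -3.02 (SE 0.52, adjusted p = 1.23e-04) and -2.97 (SE 0.52, adjusted p = 1.41e-04), the second being -3.76 without incubation medium replicate 1. CHI3L2 was 13.1-fold lower in DMEM/F12 spheroids, on 7 summed counts (95% exact interval 5.99 to 33.9, counting error only), and -2.27 (SE 0.44, adjusted p = 3.51e-04) in incubation medium. CHI3L1, which like OVGP1 binds sugars without cutting them, rose: it read 0.696, 1.26, 1.5 and 2.35 CPM in fresh cells, 42.2, 17.8, 9.92 and 73.7 in spheroids of DMEM/F12 and 9.66, 8.54, 6.52 and 32.0 in those of incubation medium. The differences were 4.64 (SE 0.79, adjusted p = 1.13e-04) and 3.29 (SE 0.84, adjusted p = 0.0029), and without replicate 4 of the spheroids compared they were 4.03 and 2.53, both called. With the replicate block it was lower in incubation medium than in DMEM/F12 (-1.31, adjusted p = 0.000277), a difference not called without it (adjusted p = 0.0922).

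Transcription factors of the Müllerian duct, from which the oviduct forms, were lower or did not pass. Of 18 listed, 8 were tested, and 0 were called higher and 6 lower in each medium. This is 75% called, beside 70.7% and 71.7% of all tested genes. Of all tested genes 35.1% and 35.8% were called higher, and 35.7% and 35.8% lower. NR2F2, an orphan nuclear receptor, changed by -1.16 (SE 0.13, adjusted p = 2.42e-06) and -1.29 (SE 0.13, adjusted p = 9.08e-07). WT1, a zinc finger factor, changed by -0.43 (SE 0.12, adjusted p = 0.00425) and -0.77 (SE 0.12, adjusted p = 3.38e-05). MECOM, a zinc finger factor of the chromatin, changed by -0.86 (SE 0.09, adjusted p = 8.25e-07) and -0.38 (SE 0.09, adjusted p = 0.00128) and was higher in incubation medium than in DMEM/F12 (0.48 (SE 0.09, adjusted p = 0.00124)). PAX8, the usual marker of oviduct secretory cells, was not analysed here.

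The genes whose levels ran most like each member were found by the root mean square (RMS) difference of log2 CPM over the 12 libraries, each gene centred on its own mean, among 5548 tested genes with a symbol and a mean of at least 20 CPM. For OVGP1 the nearest was PON3, a lactonase of the paraoxonase family, at 0.52. PON3 read 91.0, 47.3, 54.2 and 48.4 CPM in fresh cells, 3.16, 0.929, 0.529 and 1.68 in spheroids of DMEM/F12 and 3.58, 1.07, 0.615 and 2.69 in those of incubation medium. Like OVGP1, for likeness to which it was picked, it was higher in replicates 1 and 4 than in replicates 2 and 3 of both media. At 0.529 to 1.07 CPM in replicates 2 and 3 it rested on few counts, so its spheroid pattern is imprecise. The next were TMEM212, a membrane protein, at 0.69, the immediate early nuclear receptor NR4A3 at 0.81 and the dipeptidase DPEP2 at 0.83.

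ESR1 had closer companions. PXK, a protein of endosomes, lay at an RMS of 0.10, TTC29, a protein of cilia and flagella, at 0.12, the translation factor EIF4A2 at 0.15 and the lipid phosphatase PLPP1 at 0.16. EIF4A2 read 1085, 1049.9, 1171 and 1045 CPM in fresh cells, 307, 296, 253 and 301 in spheroids of DMEM/F12 and 431, 403, 352 and 449.7 in those of incubation medium. These 4 genes were picked for likeness to ESR1 over the same libraries, so calls shared with it follow largely from the choice. All 4 were called lower in both media and called higher in incubation medium than in DMEM/F12, as ESR1 was. With library totals in place of TMM, TTC29 lost that last call (0.33, adjusted p = 0.0565). For PGR the nearest were CRYZ, a quinone reductase, at 0.26, SMTNL2 at 0.30, the transcriptional coactivator EYA2 at 0.30 and the cilium assembly factor CFAP300 at 0.31. The members lay at 0.39 from each other for ESR1 and PGR, 2.04 for OVGP1 and PGR and 2.20 for OVGP1 and ESR1. These distances describe the 12 libraries, whose 3 groups shape every profile, and have no test.

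Markers of other cell types differed between the groups too, in both directions. All 11 tested markers of multiciliated cells, the other main cell type of the oviduct lining, were called lower in both media. Their summed level ranged from 1562 to 1787 CPM in fresh cells, 176 to 413 in spheroids of DMEM/F12 and 172 to 308 in those of incubation medium. The share of all tested genes called lower was 35.7% in DMEM/F12 and 35.8% in incubation medium. FOXJ1, which switches on motile cilia, fell from 453 ± 13.6 CPM to 88.6 ± 33.4 and 67.5 ± 12.9 (-2.35 (SE 0.21, adjusted p = 2.31e-07) and -2.75 (SE 0.22, adjusted p = 6.08e-08)). Stromal markers summed to 1434 to 1943 CPM in fresh cells, 56.4 to 155 in spheroids of DMEM/F12 and 18.9 to 22.3 in those of incubation medium, with 3 of 6 and 5 of 6 called lower and 1 called higher in each medium. The marker called higher was THY1, a surface protein of fibroblasts, with 0.268 CPM in fresh cells, 22.9 with DMEM/F12 and 5.13 with incubation medium. Most of the stromal sum of fresh cells was MGP, a calcification inhibitor, at 1612 ± 293 CPM. COL1A1, a collagen of fibroblasts, was at 31.1 ± 14.3 CPM there.

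Leukocyte markers, 2 of 3 tested called lower in each medium, ranged from 22.1 to 31.5 CPM in fresh cells, 7.68 to 16.0 in spheroids of DMEM/F12 and 4.97 to 14.5 in those of incubation medium, and the B cell marker MS4A1 held 2 counts in all libraries. Endothelial markers were lower in fresh cells, at 45.4 to 61.1 CPM, than in DMEM/F12 (142 to 257) and incubation medium spheroids (97.4 to 162), with 2 and 3 of 4 called higher and 1 called lower in each medium, and VWF held 3 counts in all. Smooth muscle markers ranged from 207 to 337, 1048 to 1191 and 228 to 533 CPM, nearly all TAGLN, an actin-binding protein, with 1 of 5 called higher and 2 lower in each medium, and DES held 3 counts. The epithelial list summed to 4363 to 5078 CPM in fresh cells and to 7282 to 9089 and 5244 to 7211 CPM in the spheroids, with 9 and 8 of its 11 rows called higher and 1 called lower in each medium, EPCAM in DMEM/F12 (-0.52, adjusted p = 0.00741) and the tight junction protein CLDN4 in incubation medium (-0.71, adjusted p = 2.85e-04). All 10 tested proliferation genes were called higher in both media, with sums of 42.4 to 58.0, 349 to 403 and 373 to 583 CPM. Over all tested genes the share called higher was 35.1% in DMEM/F12 and 35.8% in incubation medium, and the share called lower was 35.7% and 35.8%. The part of these shifts in the lower OVGP1, ESR1 and PGR of spheroids was not tested.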

How the data were processed

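The authors deposited 1 table that holds, per its file headers, an expected count and a CPM of every gene in each library. Per the submitters' processing notes, fastp 0.24.0, STAR 2.7.11, SAMtools 1.22.1 and featureCounts (Subread 2.1.1) were used. The genome build is not given in the sources used here. Some expected counts are not whole (OVGP1 in 58.3%, ESR1 in 66.7% and PGR in 8.33% of libraries), so they were rounded. The deposited CPM equalled count over library total to within 5e-06. The gene identifiers matched 0 entries of the reference tables, so no positions or sequences are given; the planned search of sequences was not run. Spike-in rows (92) were left out, and 56.5% of gene rows carry no symbol.

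Genes were tested with edgeR 4.0.16 (R 4.3.3; low genes removed by filterByExpr, TMM factors, quasi-likelihood F-tests, 1 fit of 12 libraries without a replicate block, Benjamini-Hochberg over 14070 genes). Log2 CPM used a prior count of 2. Ratios of 2 members were compared with exact permutation tests over 70 splits, adjusted over 9 tests. Where a group held 1 to 3 counts in every library, ratios of summed counts carry exact binomial intervals. These intervals cover counting error only: the labels name no molecular identifiers, so PCR copies count as separate reads.

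Replicate numbers come from the labels, which do not say what they mark. Deviations from group means correlated between same-numbered libraries of 2 groups (r from 0.196 to 0.516 in all pairs), so the numbers were taken to pair the libraries. Between other numbers r was at most 0.023. Deviations cancel out within a group, which lowers these values where same-numbered libraries correlate, so they are no separate evidence. The fit with the block is an alternative. Replicates of a group differed beyond sampling noise (chi-square per degree of freedom at least 5.61).

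Named genes are OVGP1, ESR1, PGR, every tested receptor, up to 5 called members of each other list by mean CPM, and the 4 nearest profiles of each member. A few genes that this rule selects are not reported here. The members and lists were chosen with earlier results of these data known, and lists are described by counts and medians, with no set test. The lists cover steroid receptors, chaperones, coregulators, estrogen and progesterone responses, steroid metabolism, secretory products, the Müllerian lineage, chitinases, multiciliated cells, epithelium, stroma, smooth muscle, leukocytes, endothelium and proliferation. Alternatives were DESeq2 (1.42.0) and its size factors, library totals, other filters, rounding down, the block, fits of 8 libraries, another prior count, deposited CPM and leaving out each library. On simulated counts of these libraries the edgeR step was tested before use.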

Additional observations from a re-analysis of the deposited data

Results flagged for a closer look

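In groups of 4 libraries, a highest or lowest library was flagged where its gap to the nearest other exceeded Dixon's 95% critical share of the group's range. Over 90 genes and 270 groups there were 23 such libraries (8.52%), where chance flags about 1 in 20. Of the 3 members, 1 group was flagged: ESR1 read 326 CPM in incubation medium replicate 1, above 253 to 256 in the other 3 libraries.

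Among the receptors, ESRRG read 6.92 CPM in fresh replicate 3, PAQR7 4.7 in incubation medium replicate 4 and PGRMC2 57, below the rest, in incubation medium replicate 1. PAQR8 (ENSSSCG00025048550) read 47.1 CPM in DMEM/F12 replicate 1 and 34.5 in incubation medium replicate 1, both above the other libraries of the group. Incubation medium replicate 1 was thus flagged for ESR1, PGRMC2 and PAQR8, and also for ERRFI1, at 109 CPM below the rest.

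In fresh cells XBP1 read 389 CPM in replicate 3 (low), THBS1 384 in replicate 1, CD9 973 in replicate 4, PON3 91.0 in replicate 1 and CRYZ 25.1 in replicate 2 (low). In DMEM/F12 spheroids CCND1 read 246 CPM in replicate 3, LTF 12.4 in replicate 3 (low), RERG 138 and SPAG6 21.9 in replicate 1, CLDN4 3440 in replicate 3, CNN1 0.232 in replicate 2 (low) and PLPP1 31.5 in replicate 4. In incubation medium spheroids RGS2 read 7.61 and TYROBP 6.54 CPM in replicate 2, and CHI3L1 32.0 and TIE1 14.2 in replicate 4.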

How the results depend on the processing

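Of 330 alternatives for the members, their ratios and the counts of called genes, 319 were kept. A member or ratio was kept where direction and side of the threshold held. A count of called genes was kept where its total stayed near the main one, whatever its split into higher and lower. The other 11 concern values that passed no test and changed sign. Leaving out each library moved OVGP1 between the media from -0.10 to 0.64, PGR between the media from -0.0236 to 0.338, the ratio of ESR1 to PGR in DMEM/F12 against fresh cells from -0.18 to 0.20, and the ratio of OVGP1 to PGR between the media from -0.28 to 0.19. The ESR1 to PGR ratio was -0.00968 in DMEM/F12 with the deposited CPM. OVGP1 in DMEM/F12 stayed between -6.19 and -5.54 and ESR1 between the media between 0.47 and 0.63 over the alternatives and left-out libraries. Among named genes, signs of values that passed no test also changed: PAQR6 became 0.0245 in incubation medium with no filter (left-out libraries -0.0860 to 0.0469) and -0.0329 between the media with library totals, THBS1 (-0.393 to 0.0775) and HSD11B1 (-0.00805 to 0.228) in DMEM/F12, and PAQR8 (ENSSSCG00025048338) in incubation medium (-0.321 to 0.0770). The cause was not tested. With the replicate block OVGP1 differed from fresh cells by -6.06 and -5.88 and between the media by 0.18, ESR1 by 0.57 and PGR by 0.17 between the media. Between the media the block also called ST13, PRMT1, XBP1 and EYA2 higher and THBS1, CCND1 and DPEP2 lower in incubation medium; apart from these and the calls given beside their results, it changed no other call of a named gene outside the lists of cell type and proliferation markers. With library totals the calls lower in incubation medium than in DMEM/F12 went from 1 to 2 for chaperones and for steroid metabolism, from 2 to 4 for coregulators and for the estrogen response, and from 2 to 4 for receptors; steroid metabolism called lower in DMEM/F12 went from 5 to 3. With no filter the median of all genes moved to -0.10 in incubation medium against fresh cells. Depth limits precision for ESRRG, ESRRB and CHI3L2, which held at most 3 counts in every DMEM/F12 library.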

Other observations

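Which genes followed the replicate pattern of OVGP1 was asked with group means removed, a measure added after the data were seen. By the RMS deviation of log2 CPM over the 12 libraries the nearest of 5548 genes were PON3 (0.31), RAPGEFL1 (0.35) and the metallothioneins MT2A (0.37) and MT1A (0.38), which bind zinc and copper. MT2A read 974, 861, 845 and 1206 CPM in fresh cells, 1833, 1003, 759.9 and 1525 in spheroids of DMEM/F12 and 453, 265, 225 and 536 in those of incubation medium. In each group replicates 1 and 4 were above replicates 2 and 3, while the group means did not follow those of OVGP1: MT2A gave 0.40 in DMEM/F12 (adjusted p = 0.226) and -1.39 in incubation medium (adjusted p = 6.18e-04). Metallothionein genes are near-identical copies, and the counts of MT2A and MT1A were fractions in every library, so their split is uncertain. For PGR the nearest were PLA2G7 (0.16), a lipase of platelet-activating factor, ANPEP (0.18), an aminopeptidase, the metallothionein MT1D (0.20) and MEIS2 (0.20), a homeodomain factor. OVGP1 and PGR lay at 0.44 from each other by this measure, OVGP1 and ESR1 at 0.68 and ESR1 and PGR at 0.35.

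Neighbours of PGR in the RefSeq order of Sscrofa11.1 did not all move with it. They were matched by symbol alone, as the build of these data is not given. ARHGAP42, next to it on one side, rose from 8.17 CPM in fresh cells to 26.3 in DMEM/F12 and 25.1 in incubation medium spheroids (1.69 and 1.62, edgeR adjusted p = 2.06e-05 and 3.02e-05). TRPC6, next to PGR on the other side, fell by 2.1 and 2.04 (adjusted p = 0.00114 and 0.00142) from 2.90 CPM. Further off, CEP126 fell from 58.6 CPM to 7.92 and 9.56 (-2.88 and -2.61, edgeR adjusted p = 3.42e-08 and 7.63e-08). CCDC82 changed by -0.47 and -0.40 (edgeR adjusted p = 0.0123 and 0.029). Of these tested neighbours ARHGAP42 alone rose.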
